A study of Mus musculus with 2 samples.

Results

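The 3 Nr4a receptors (Nr4a1, Nr4a2 and Nr4a3) and the immediate early genes Egr1, Fos, Fosb, Jun, Junb, Atf3 and Ier2 were followed across the nuclei of mouse quadriceps. They were taken by symbol, 10 of the 53700 features of the count tables, and all 10 were found in both libraries. The set was chosen by name after several of its genes had shown high knockout to WT ratios in myonuclei, so those ratios are given as a description. The quadriceps, the large extensor of the thigh, came from C57BL/6N mice aged 3 months that were WT or carried a PTRF knockout. PTRF is the older name of Cavin1, a coat protein that caveolae, the small pits of the plasma membrane, need to form. Each genotype was represented by 1 library of single nuclei captured in droplets, with no other treatment named. The labels do not state how many animals, or of which sex, went into each library, nor whether the knockout was whole-body. With 1 library of each, genotype cannot be told apart from anything else that differed between the preparations, and no test between genotypes was possible.

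Immediate early genes are transcribed within minutes of a stimulus, without new protein synthesis, and their transcripts are short-lived. Calcium, cyclic AMP, growth factor and stretch signals reach them through factors already bound at their promoters, among them CREB and the serum response factor. The Nr4a receptors are orphan nuclear receptors that act without a known physiological ligand. In skeletal muscle they are induced by exercise and regulate genes of glucose and oxidative metabolism. Egr1 is a zinc finger factor, Fos, Fosb, Jun and Junb form the dimeric factor AP-1, Atf3 is a stress-induced relative of the CREB family, and Ier2 is a small nuclear protein.

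The promoters of the members differ in how often they hold the letters TGACG, the core of the cyclic AMP response element that CREB binds. RefSeq start sites on GRCm38.p6 were used for 8 of the 10 members, and the 250 bases before each were searched on both strands. Egr1 and Ier2 were not searched, so nothing is said of motifs in their promoters. TGACG or its reverse complement CGTCA was in 17.8% of the 32851 promoters of the same length. It occurred 4 times in each of Nr4a1, Nr4a2 and Nr4a3, a number reached by 45 promoters in all (0.137%). Fos held 2 copies, Fosb, Junb and Atf3 held 1 each, and Jun held 0. The sequences of the 3 receptors, of Fos and of Jun are shown because they span this range, with TGACG and CGTCA in capitals, each 5′ to 3′ on the strand of its gene. The stretch of Nr4a1 lies at chr15:101266596-101266845 on the plus strand, that of Nr4a2 at chr2:57124004-57124253 on the minus strand and that of Fos at chr12:85473640-85473889 on the plus strand. The stretch of Jun lies at chr4:95052223-95052472 on the minus strand. For Nr4a3 only the 98 bases at chr4:48045055-48045152 on the plus strand are shown, which hold 3 of the 4 copies, since an annotated exon begins after them.
Nr4a1: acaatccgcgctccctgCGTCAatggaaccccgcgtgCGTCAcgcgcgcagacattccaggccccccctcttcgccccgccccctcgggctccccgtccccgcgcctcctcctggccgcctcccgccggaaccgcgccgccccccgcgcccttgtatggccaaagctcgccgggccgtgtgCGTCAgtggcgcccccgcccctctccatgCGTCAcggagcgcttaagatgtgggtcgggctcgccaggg
Nr4a2: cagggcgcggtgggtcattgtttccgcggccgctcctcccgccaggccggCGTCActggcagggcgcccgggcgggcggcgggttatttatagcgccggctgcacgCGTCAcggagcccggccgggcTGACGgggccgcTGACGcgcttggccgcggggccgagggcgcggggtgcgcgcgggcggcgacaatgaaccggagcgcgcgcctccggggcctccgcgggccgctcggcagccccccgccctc
Nr4a3: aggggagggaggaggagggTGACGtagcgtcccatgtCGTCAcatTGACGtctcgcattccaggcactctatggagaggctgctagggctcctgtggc
Fos: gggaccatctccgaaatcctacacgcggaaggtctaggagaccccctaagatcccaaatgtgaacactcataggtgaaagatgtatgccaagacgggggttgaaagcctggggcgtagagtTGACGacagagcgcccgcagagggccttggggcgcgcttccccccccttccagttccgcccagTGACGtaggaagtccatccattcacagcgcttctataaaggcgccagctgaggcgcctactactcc
Jun: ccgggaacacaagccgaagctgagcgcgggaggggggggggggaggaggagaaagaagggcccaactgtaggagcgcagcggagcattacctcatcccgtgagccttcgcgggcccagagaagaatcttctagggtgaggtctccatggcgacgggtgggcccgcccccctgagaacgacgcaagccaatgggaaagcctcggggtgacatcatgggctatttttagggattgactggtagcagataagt

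The full palindrome TGACGTCA was in none of the 8 windows and in 1.55% of all promoters. TATAAA was found in Nr4a2, 164 bases before its start, and in Fos, 33 bases before, against 12.4% of all promoters. The Egr motif GCGNGGGCG was present once each in Nr4a1, Nr4a2 and Fosb and in 4.70% of all promoters. The AP-1 motif TGANTCA, held by 6.75% of promoters, the Nr4a monomer motif AAAGGTCA, held by 1.34%, and the CArG box of the serum response factor, held by 1.47%, were in none of the 8 windows. These are matches of letters within a short window and say nothing about binding.

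After filtering, 10272 WT and 7762 knockout nuclei remained, with a median of 703 and 1562 UMIs (unique molecular identifiers, each counting 1 captured transcript). Cavin1 had 75 UMIs in WT and 2 in the knockout, or 7.70 and 0.125 CPM (UMIs of the gene per 1000000 UMIs of all genes), so it was lower in the library labelled as its knockout. The knockout library held nuclei of both sexes. Xist, made only from an inactive X chromosome, was present without Y-linked UMIs in 1527 knockout nuclei and the reverse in 3103, against 2 and 2721 in WT. Results are therefore also given for Y-marked and Xist-marked nuclei, and 24 cell barcodes occurred in both libraries. Nuclei were clustered together with the members and other immediate early genes left out of the variable genes, which removed 4 of 2000. Clusters were named myonuclei-like if rich in pan-myonuclear transcripts such as Ttn and Neb and in no list of another cell type. Clusters led by repeat-rich or long neuronal transcripts were left out, by a rule set after the data were seen. This gave 7591 WT and 5384 knockout myonuclei-like nuclei. These include a cluster rich in neuromuscular junction markers (39 and 33 nuclei) and a cluster rich in myotendinous junction markers (130 and 90). All 10 pan-myonuclear markers were detected in them, at a summed 103231 CPM in WT and 84223 in the knockout. A cluster of 1381 WT and 36 knockout nuclei was left unnamed by that rule, although its pan-myonuclear transcripts stood at 108347 CPM. Intervals are exact 95% intervals for counting error only and do not cover differences between animals or between nuclei. No cell type here should lack immediate early genes altogether, so a background share could not be set from one.

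All 10 members were located on GRCm38 by their identifiers in GENCODE M21. Nr4a1 (ENSMUSG00000023034) spans chr15:101254269-101274795 on the plus strand, Nr4a2 (ENSMUSG00000026826) chr2:57106830-57124003 on the minus strand and Nr4a3 (ENSMUSG00000028341) chr4:48045153-48086447 on the plus strand. Egr1 (ENSMUSG00000038418) spans chr18:34859823-34864984, plus strand, and Atf3 (ENSMUSG00000026628) chr1:191170296-191218039, minus strand. Fos (ENSMUSG00000021250) lies at chr12:85473890-85477273 on the plus strand and Fosb (ENSMUSG00000003545) at chr7:19302696-19310051 on the minus strand. Jun (ENSMUSG00000052684) lies at chr4:95049034-95052222, Junb (ENSMUSG00000052837) at chr8:84974484-84978718 and Ier2 (ENSMUSG00000053560) at chr8:84661331-84662852, all on the minus strand. Atf3, at 47.7 kb, is the longest of them and Ier2, at 1.52 kb, the shortest.

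In myonuclei-like nuclei the Nr4a receptors were higher in the knockout library in all 3 cases, most of all Nr4a3. Egr1, Fosb and Junb were higher too, Fos slightly so, while Jun was lower and Atf3 was nearly level. Of the 9 members with at least 20 UMIs over both libraries, 6 were at least 2-fold higher in the knockout and 1 was at least 2-fold lower. Over all 14958 genes with as many UMIs, 4.72% were higher by that much and 22.6% were lower. All 10 members are genes of less than 50 kb, and among the 9633 measured genes of up to that length the shares were 5.82% and 12.6%. The rule that chose the members used this contrast, so nothing is read from these counts. The median log2 ratio over all genes was −0.10.

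Nr4a1, also known as Nur77, had 1104 UMIs in WT and 4745 in the knockout, levels of 145 and 386 CPM. It was detected in 11.3% of WT and 47.2% of knockout myonuclei-like nuclei. Thinned to 500 UMIs per nucleus, which left out 1369 WT nuclei and no knockout nucleus, these shares were 6.14% and 18.03%. The knockout level was 2.65-fold that of WT (2.49 to 2.84), a log2 ratio of 1.41, and the intervals of both levels did not overlap.

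Nr4a3, or Nor1, was rare in WT myonuclei-like nuclei, with 44 UMIs and 5.80 CPM, and had 1379 UMIs and 112 CPM in the knockout. This was a log2 ratio of 4.26 (3.84 to 4.74), with 0.422% of WT and 10.96% of knockout nuclei holding a UMI, or 0.257% and 4.18% after thinning. Nr4a2, or Nurr1, had 15 and 212 UMIs, at 1.98 and 17.3 CPM, a log2 ratio of 3.08 (2.37 to 3.99). The 3 receptors together had 1163 and 6336 UMIs and a log2 ratio of 1.75 (1.66 to 1.84). Most of that sum was Nr4a1, so its ratio says little about the other receptors.

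Egr1 had 7 UMIs in WT and 122 in the knockout, at 0.922 and 9.93 CPM, a log2 ratio of 3.34 (2.34 to 4.77). The Fos genes differed from each other in these libraries. Fosb, with 6 and 50 UMIs, had a log2 ratio of 2.26 (1.14 to 3.88). Fos, with 50 and 152 UMIs at 6.59 and 12.4 CPM, had 0.90 (0.44 to 1.40), an interval that lies above 0 and includes a 2-fold difference.

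The Jun genes had ratios on opposite sides of no difference. Junb had 10 and 68 UMIs, at 1.32 and 5.54 CPM, a log2 ratio of 2.01 (1.10 to 3.19). Jun had 163 and 125 UMIs, at 21.5 and 10.2 CPM, a log2 ratio of −1.08 (−1.43 to −0.73). Of the members with at least 20 UMIs, Jun alone was at least 2-fold lower in the knockout. Jun overlaps the antisense gene Junos and Junb overlaps Prdx2, both on the opposite strand. The labels do not say whether reads were assigned by strand. Part of the UMIs of Jun and Junb may thus belong to the other gene.

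Atf3 had 167 and 209 UMIs, at 22.0 and 17.0 CPM, a log2 ratio of −0.37 (−0.67 to −0.07). Atf3 spans the small opposite-strand gene Gm24748. Ier2 had 4 and 13 UMIs, under the minimum of 20, and a log2 ratio of 0.89 (−0.69 to 3.08), so that a difference was not detectable at this depth.

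**Figure D1:**
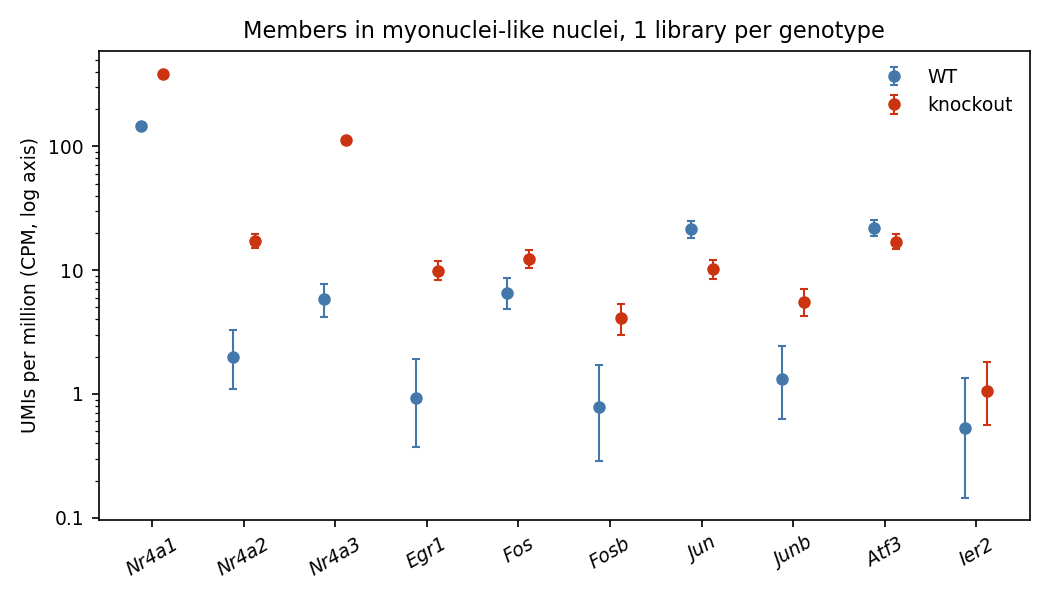
Levels of the 10 members in myonuclei-like nuclei, in CPM on a log axis, with WT in blue and knockout in red and bars for exact 95% Poisson intervals (counting error, 1 library per genotype). Nr4a3 stands at 5.80 CPM in WT and 112 in the knockout, whereas Jun lies lower in the knockout, at 10.2 against 21.5 CPM.

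Markers of other cell types were present among myonuclei-like nuclei and mostly lower in the knockout. Of 12 such lists, 11 had a lower summed level in the knockout and 1, the mural list, a higher one, at 277 CPM in WT with 8 of 8 markers detected and 378 in the knockout with 7 (Kcnj8 at 0). The fibro-adipogenic list stood at 142 and 117 CPM with all 10 markers detected, the macrophage list at 32.9 and 9.53 CPM with C1qb at 0 in WT, and the list of T or NK cells at 31.2 and 2.69 CPM with Nkg7 at 0 in both. The share of Rn18s, the ribosomal RNA gene, was 8.07% of all WT and 2.90% of all knockout UMIs. The part of these differences in the levels of the members was not tested. A summed level does not tell fewer nuclei with a transcript from less of it per nucleus, so detection shares are given beside the levels.

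The level of Nr4a3 was carried by a minority of nuclei. In the knockout 590 myonuclei-like nuclei held it, and the 158 of them with 3 or more UMIs held 60.4% of its UMIs, up to 17 in 1 nucleus. In WT 32 nuclei held it and 5 reached 3 UMIs, the highest number there. Atf3 was concentrated in both libraries. It was found in 78 WT and 83 knockout nuclei, of which 17 and 19 with 3 or more UMIs held 60.5% and 64.6% of its UMIs, and the highest nuclei had 16 and 27. Jun was spread thinly, in 153 WT and 116 knockout nuclei with at most 2 UMIs each. Nr4a1 was the widespread member, found in 858 and 2542 nuclei, of which 52 and 547 had 3 or more UMIs.

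Nuclei were next split by fibre type, taken as the adult myosin heavy chain gene with the most UMIs, at least 2 and with no tie. Myh4 encodes the fastest myosin (type IIb), Myh1 and Myh2 those of type IIx and IIa fibres, and Myh7 the slow one. Myh4 led in 3877 WT and 3878 knockout nuclei, Myh1 in 782 and 512, Myh2 in 502 and 259, and Myh7 in 11 and 34. In 2419 WT and 701 knockout nuclei no isoform led. The Myh7 group was too small to compare, with 0 UMIs of Nr4a1 in WT and 18 in the knockout.

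The receptors were higher in the knockout in all 3 fast fibre types, and in the knockout Nr4a3 was highest in Myh1-leading nuclei. Of the members with at least 20 UMIs, 6 of 9 were at least 2-fold higher in Myh4-leading nuclei (5.15% of all genes), 4 of 6 in Myh1-leading (6.60%) and 3 of 5 in Myh2-leading nuclei (8.31%). The Nr4a receptors were among them in each fibre type. These nuclei are part of the contrast that chose the members, so nothing is read from these counts either.

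Nr4a3 had 4.74 CPM in WT and 79.3 in the knockout in Myh4-leading nuclei, 6.68 and 332 in Myh1-leading, and 2.77 and 128 in Myh2-leading nuclei. In WT these rest on 20, 7 and 2 UMIs with overlapping intervals, so no order of the fibre types could be read there. In the knockout the intervals were 73.7 to 85.1, 300 to 366 and 101 to 159 CPM and did not overlap. The Myh1-leading level was 4.19-fold (3.70 to 4.74) that of Myh4-leading nuclei and 2.59-fold (2.04 to 3.36) that of Myh2-leading nuclei. Nr4a3 was detected in 29.5% of knockout Myh1-leading nuclei, 12.7% of Myh2-leading and 8.20% of Myh4-leading, and in 12.9%, 4.25% and 2.86% after thinning. Median depth was close between these groups, at 1899, 1958 and 1930 UMIs.

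Nr4a1 was less graded. It had 159 and 356 CPM in Myh4-leading nuclei, 152 and 561 in Myh1-leading and 115 and 317 in Myh2-leading nuclei, WT first. In the knockout the Myh1-leading level was again the highest, 1.58-fold (1.45 to 1.71) that of Myh4-leading nuclei. Nr4a2 had another order, with 13.9 CPM in Myh4-leading, 26.6 in Myh1-leading and 38.8 in Myh2-leading knockout nuclei. Its Myh1- and Myh2-leading intervals, 18.2 to 37.6 and 24.8 to 57.7 CPM, overlapped. Egr1 showed no fibre type order, at 8.35, 13.3 and 12.9 CPM in the knockout with overlapping intervals, and Myh1-leading WT nuclei held 0 UMIs of it, which allows a level of up to 2.86 CPM.

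Within the knockout, 3 of 9 members were at least 2-fold higher in Myh1-leading than in Myh4-leading nuclei (11.3% of all genes) and 5 of 9 in Myh2-leading than in Myh4-leading nuclei (15.8%). Within WT these counts were 1 of 5 (6.84%) and 2 of 5 (9.56%). Atf3 was among them in all 4 comparisons. Among the 5 members higher in Myh2-leading knockout nuclei, Fosb and Junb rested on 6 and 7 Myh2-leading UMIs. Their ratios, 2.88-fold and 2.41-fold, had lower bounds of 0.925-fold and 0.868-fold, so both intervals include no difference. The lower bound of Fos there was 1.07-fold.

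Atf3 was the member most clearly divided by fibre type, in both genotypes. It had 4.98 CPM in WT and 5.81 in the knockout in Myh4-leading nuclei, 47.7 and 65.7 in Myh1-leading, and 69.3 and 54.9 in Myh2-leading nuclei. Myh1- over Myh4-leading it was 9.45-fold (5.65 to 16.8) in WT and 11.3-fold (7.92 to 16.3) in the knockout. These levels rest on few nuclei. Atf3 was detected in 17 of 3877 WT and 24 of 3878 knockout Myh4-leading nuclei. The numbers were 17 of 782 and 23 of 512 in Myh1-leading, and 21 of 502 and 16 of 259 in Myh2-leading nuclei. Cluster 11, described below, held 97 of its 167 WT and 142 of its 209 knockout UMIs, so fibre type and cluster were not told apart for Atf3. Within fibre types the knockout to WT log2 ratios were 0.20 in Myh4-leading, 0.46 in Myh1-leading and −0.33 in Myh2-leading nuclei, each with an interval that includes 0. Jun was lower in the knockout in each fast fibre type, at 9.93 against 17.3 CPM in Myh4-leading, 13.3 against 20.99 in Myh1-leading and 12.9 against 41.6 in Myh2-leading nuclei. The interval of the Myh1-leading ratio, −1.68 to 0.34 in log2, includes no difference.

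**Figure D2:**
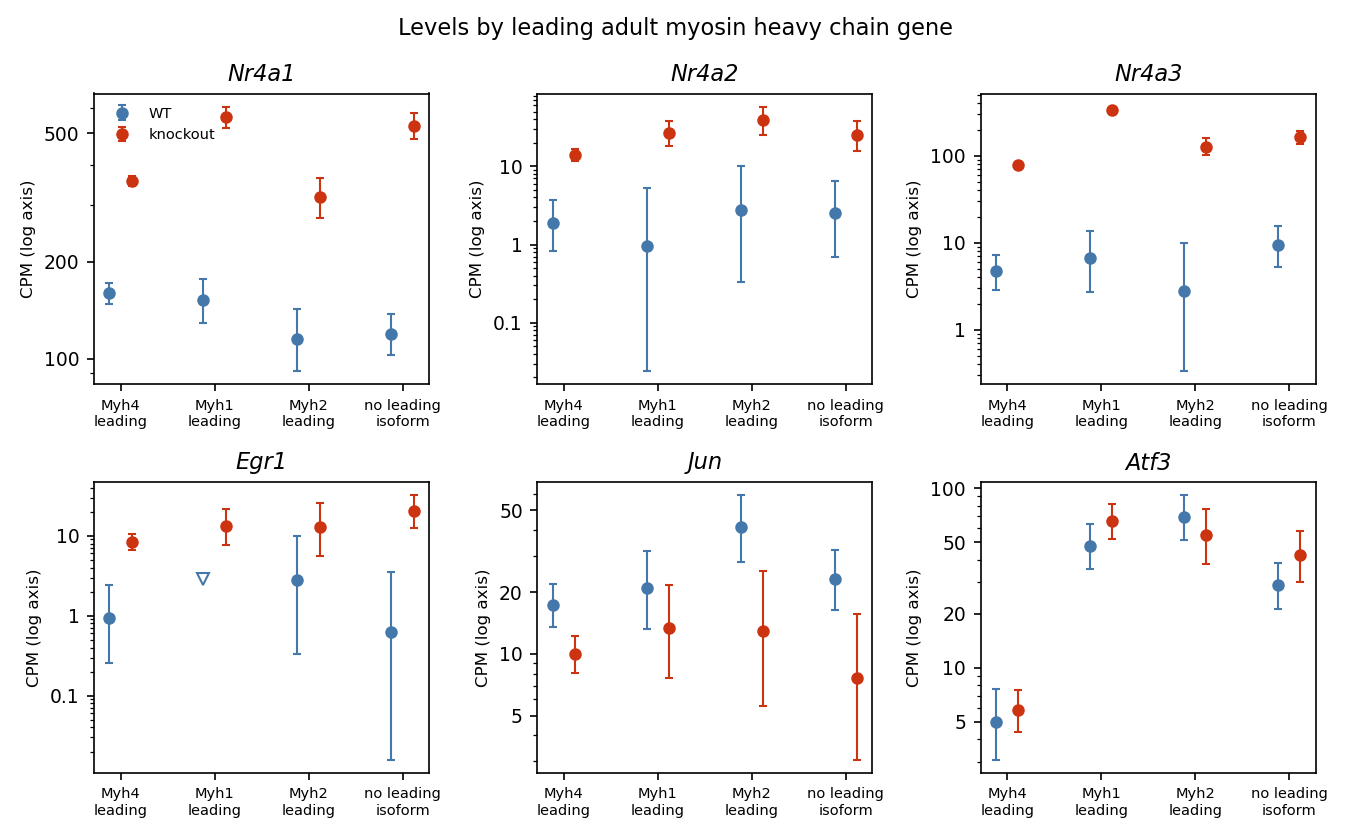
Levels of 6 members by leading myosin heavy chain gene, in CPM on log axes that differ between panels, with WT in blue, knockout in red and exact 95% Poisson bars; an open triangle stands at the level of 3 UMIs where a library held none. Knockout Nr4a3 is highest in Myh1-leading nuclei at 332 CPM, and Atf3 is lowest in Myh4-leading nuclei in both libraries, at 4.98 and 5.81 CPM.

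Myonuclei-like clusters differed in Nr4a3 more than fibre types did. In the knockout its level was 311 CPM in cluster 0, 287 in cluster 15 (named by myotendinous junction markers), 267 in cluster 11 and 260 in cluster 2. It was 26.5 CPM in cluster 6, 25.7 in cluster 18, 23.8 in cluster 14 and 17.2 in cluster 3. The first 4 clusters thus stood about an order of magnitude above the others, although no member took part in the clustering. The clusters were not independent of fibre type or of the receptors. Myh1 was the first leading gene of cluster 0, and Ankrd2 and Myh2 were the first of cluster 11. Nr4a3 was the first of cluster 2, with Nr4a1 among its 10 leading genes. In WT the same first 4 clusters had 8.25 to 12.9 CPM. Clusters 0, 2 and 11 held 24, 6 and 8 of the 44 WT UMIs of Nr4a3. They held 1867275, 558470 and 888125 of the 7589303 WT myonuclei-like UMIs of all genes. WT Nr4a3 was thus also concentrated in these clusters, at low counts, so the split between clusters was not seen in the knockout alone.

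Cluster 14 held 2770 of the 5384 knockout and 120 of the 7591 WT myonuclei-like nuclei, so pooled values compare different clusters to a large extent. The ratios differed between clusters. Nr4a3 had knockout to WT log2 ratios of 4.57 (4.00 to 5.26) in cluster 0, 4.48 (3.46 to 6.05) in cluster 2 and 4.80 (3.89 to 6.11) in cluster 11, each somewhat above the pooled 4.26. In cluster 14 it had 1 and 166 UMIs and a ratio of 1.64 (−0.28 to 7.53), an interval that includes no difference. Nr4a1 there had 35 and 2008 UMIs and 0.67 (0.21 to 1.21), against 1.86, 1.56 and 2.03 in clusters 0, 2 and 11, and Nr4a2, with 1 and 89 UMIs, had 0.74 (−1.20 to 6.64). The summed receptors in cluster 14 had 0.76 (0.31 to 1.29), below the pooled 1.75. Jun was lower in clusters 0, 2 and 11, at −1.29, −1.68 and −1.28, and had −1.25 (−2.51 to 0.83) in cluster 14. In clusters 0, 2 and 11 3 of 6 members (5.24% of all genes), 3 of 5 (6.72%) and 5 of 7 (9.12%) were at least 2-fold higher in the knockout. The receptors were among them in these 3 clusters, with Egr1 and Fos added in cluster 11. The clusters are also part of the contrast that chose the members, and their counts are a description. In cluster 14 Nr4a1 and Nr4a2 were under 2-fold, and 5 members had 0 WT UMIs there, so no count is given for it.

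The Myh4-leading level was also a mixture of clusters. Of the 3878 knockout Myh4-leading nuclei, 2547 lay in cluster 14, with Nr4a3 at 22.2 CPM, and the other 1331 had 219 CPM (202 to 237). No Myh1- or Myh2-leading nucleus lay in cluster 14. Outside it, Nr4a3 in the knockout was thus higher in Myh4-leading than in Myh2-leading nuclei, at 219 against 128 CPM, the reverse of the order over all nuclei, and remained highest in Myh1-leading nuclei at 332. Nr4a1 outside cluster 14 was 538 CPM in Myh4-leading against 561 in Myh1-leading nuclei, with overlapping intervals. This split was chosen after the values were seen.

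**Figure D3:**
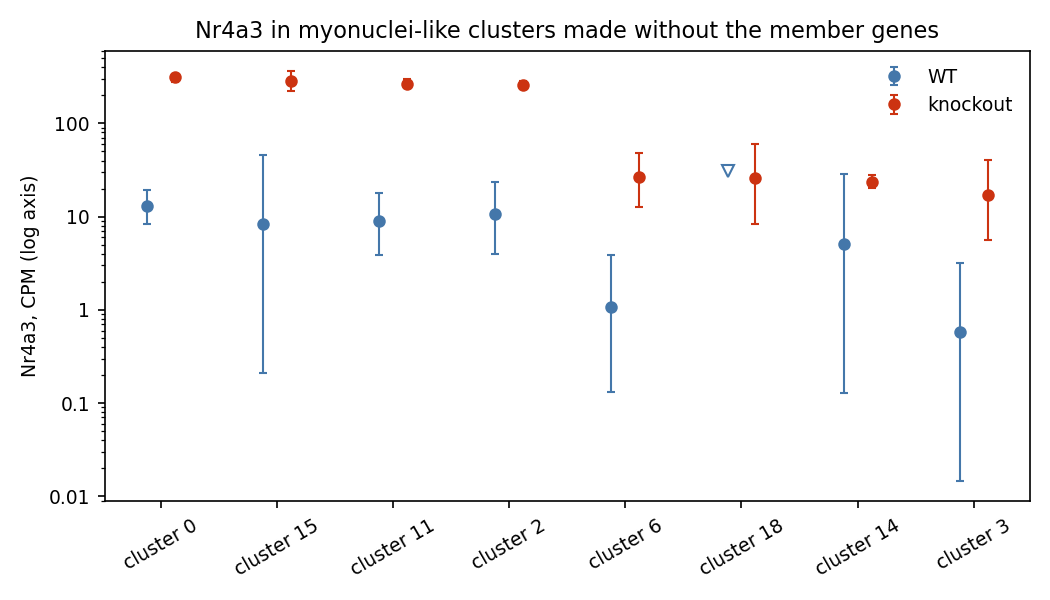
Nr4a3 level in the 8 myonuclei-like clusters with at least 90 nuclei in both libraries, in CPM on a log axis, WT in blue and knockout in red, ordered by the knockout level, with exact 95% Poisson bars and an open triangle at the level of 3 UMIs where WT held none. Knockout values form a group at 260 to 311 CPM and another at 17.2 to 26.5 CPM.

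The sex mark divided Nr4a3 inside the knockout library, while for most other members no difference could be resolved. Y-marked knockout myonuclei-like nuclei (2738) had 982 UMIs and 128.5 CPM of Nr4a3, and Xist-marked ones (574) had 37 UMIs and 33.2 CPM, a log2 ratio of 1.94 (1.48 to 2.47). It was the only one of 9 members at least 2-fold higher in Y-marked nuclei (5.97% of all genes). Nr4a1 leaned the other way, at −0.38 (−0.51 to −0.24), and the intervals of the other 7 members with at least 20 UMIs included 0. These 7 rested on 3 to 17 Xist-marked UMIs each, too few to show that they were level. In Myh1-leading nuclei Nr4a3 was 459 CPM and detected in 45.0% of the 229 Y-marked nuclei, against 59.4 CPM in Xist-marked ones. Median depth there was 2696 UMIs in Y-marked and 1711 in Xist-marked nuclei. In Myh4-leading nuclei the values were 85.2 and 29.98 CPM, and in Myh2-leading nuclei 153 and 14.3 CPM, the last from 2 UMIs.

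Both marks lay above WT. Against Y-marked WT nuclei, at 5.39 CPM, Y-marked knockout nuclei had 6 of 9 members at least 2-fold higher (5.57% of all genes) and Xist-marked ones 4 of 6 (5.54%). The latter were Nr4a1, Nr4a2, Nr4a3 and Fos, with Nr4a3 at a log2 ratio of 2.60 (1.76 to 3.54). Jun was lower there too, at −1.22 (−2.48 to −0.27). The counts by mark come from nuclei of the contrast that chose the members and are a description. Sex and animal cannot be told apart in this library.

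Co-detection asked whether members were found in the same nuclei. For each pair, the nuclei with both were compared with the number given by separate detection within 10 strata of depth, as a description of knockout myonuclei-like nuclei. Nr4a3 occurred with Nr4a1 in 413 nuclei (298.7 expected, ratio 1.38) and with Nr4a2 in 55 (21.1 expected, ratio 2.61). It occurred with Fosb in 17 nuclei (3.91 expected, ratio 4.35), with Egr1 in 32 (10.7, ratio 2.98), with Atf3 in 26 (10.2, ratio 2.56) and with Fos in 40 (15.9, ratio 2.52). Jun was closest to independence from Nr4a3, in 18 nuclei against 14.5 expected (ratio 1.24). The highest ratio among pairs with at least 2 expected nuclei was that of Egr1 and Fos, in 23 nuclei against 2.41 expected (9.53), followed by Fos and Atf3, in 17 against 2.23 (7.61).

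These ratios differed between fibre types. Within the 512 Myh1-leading knockout nuclei, Nr4a3 and Nr4a1 were found together in 102 nuclei against 102.8 expected (0.99) and Nr4a3 and Atf3 in 6 against 6.64 (0.90), while Nr4a3 with Nr4a2 had a ratio of 2.02, in 17 nuclei. Within the 3878 Myh4-leading nuclei the ratios were near or above those over all nuclei, at 1.49 with Nr4a1 (233 nuclei), 2.86 with Nr4a2 (28), 3.22 with Egr1 (17), 2.42 with Fos (18) and 3.70 with Atf3 (9). Expected numbers took account of depth and not of cluster, here and over all nuclei. Of the Myh4-leading nuclei 2547 lay in cluster 14, where Nr4a3 was lower. The part of this mixture of clusters in the ratios was not tested. Within the 259 Myh2-leading nuclei Nr4a1 had 1.15 (19 nuclei) and Atf3 2.93 (7). Knockout nuclei with 3 or more Nr4a3 UMIs had 30.4% Myh1-leading nuclei, against 7.53% of those without Nr4a3. Their median depth was 2950 against 1731 UMIs. They had 48.2 CPM of Egr1 against 6.76, 49.9 of Fos against 9.58 and 87.4 of Atf3 against 11.3. In WT, 8 nuclei held both Nr4a1 and Nr4a3 against 4.64 expected, too few to compare.

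**Figure D4:**
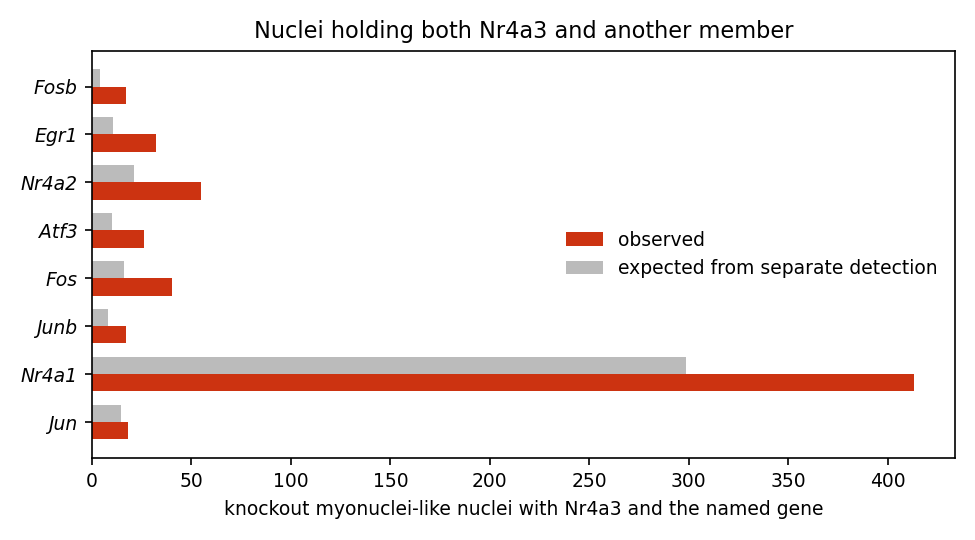
Number of knockout myonuclei-like nuclei that held Nr4a3 together with the named member (red), beside the number expected from their separate detection within depth strata (grey), ordered by the ratio with the highest on top. Fosb has the highest ratio, 17 nuclei against 3.91 expected, and Jun the lowest, 18 against 14.5.

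With each nucleus thinned to 500 UMIs, 91.7% of WT and 77.0% of knockout myonuclei-like nuclei held no member, 8.05% and 20.3% held 1, and 0.257% and 2.43% held 2. A further 0.260% of knockout nuclei held 3, and none did in WT. Without thinning, 83.7% and 46.2% held none.

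Outside the muscle fibres, levels were read against RNA carried over from myonuclei. The summed pan-myonuclear transcripts stood at 16.7% of their myonuclei-like level in knockout adipocyte-like nuclei, at 36.1% in fibro-adipogenic-like and at 54.0% in macrophage-like nuclei. In WT these percentages were 33.3%, 65.8% and 50.6%, so the libraries held different shares of muscle RNA in the first 2 classes. The part of that in the knockout to WT ratios of these classes was not tested. A member at or below that percentage shows no more than carry-over would give. Nr4a3 was near or below it in all 3, at 21.1% (15.5 to 28.1), 42.5% (29.7 to 59.2) and 34.7% (18.9 to 58.4) of its myonuclei-like level. Atf3 was likewise near it in adipocyte-like nuclei at 17.4% and in fibro-adipogenic-like nuclei at 39.0%.

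Egr1, Fosb and the Jun genes had a different distribution. In knockout adipocyte-like nuclei Egr1 stood at 397% (296 to 531) of its myonuclei-like level and Fosb at 436% (276 to 683). In fibro-adipogenic-like nuclei Egr1 was at 374% (239 to 567), Jun at 326% (203 to 503), Junb at 287% (142 to 535) and Fos at 246% (152 to 384). In macrophage-like nuclei Junb was at 854% (470 to 1469), from 17 UMIs, and Fos at 225% (106 to 425), from 10. Egr1 at 84.0% (17.1 to 251), Fosb at 68.3% (1.70 to 398) and Jun at 109% (29.3 to 287) were not resolved from carry-over there. Intervals that include 100% were those of Jun (90.4 to 212) and Junb (83.4 to 261) in adipocyte-like nuclei and of Fosb (68.5 to 456) in fibro-adipogenic-like nuclei. Nr4a2 was at 134% in adipocyte-like and 108% in fibro-adipogenic-like nuclei, above the carry-over level and with intervals that include 100%. Nr4a1 was above carry-over in adipocyte-like nuclei, at 45.4% (40.7 to 50.6), and in fibro-adipogenic-like nuclei, at 49.4% (41.6 to 58.3), and at the carry-over level in macrophage-like nuclei, at 54.0%.

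**Figure D5:**
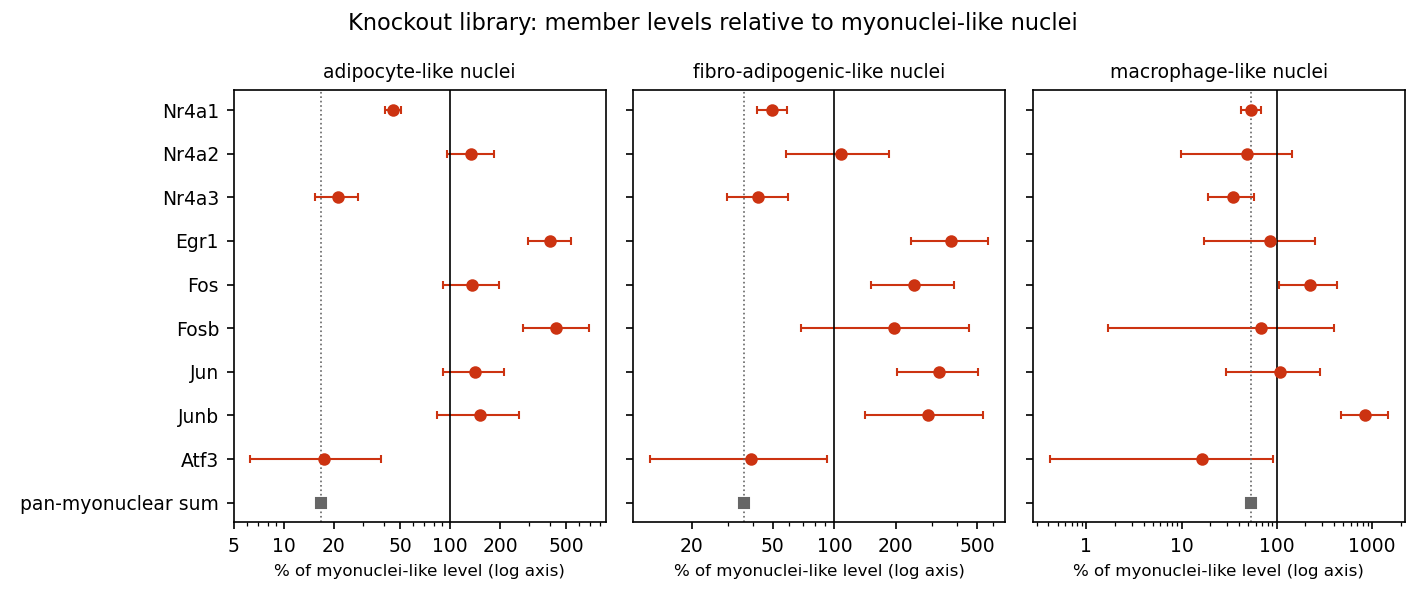
Level of 9 members in knockout adipocyte-like, fibro-adipogenic-like and macrophage-like nuclei as a percentage of the level in knockout myonuclei-like nuclei, on log axes, with exact 95% intervals. The dotted line and grey square mark the pan-myonuclear transcripts, the level of carried-over muscle RNA, and the solid line marks 100%; Nr4a3 lies near or below the dotted line in all 3 panels, while Egr1 lies near 400% in adipocyte-like nuclei.

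Fibro-adipogenic cells are mesenchymal cells between the fibres, and 435 WT and 609 knockout nuclei were named for them. Of 5 members with at least 20 UMIs there, 2 were at least 2-fold higher in the knockout (15.3% of all genes). They were Nr4a3, with 2 and 36 UMIs and a log2 ratio of 2.88 (1.23 to 6.28), and Fos, with 3 and 23 UMIs and 1.76 (0.23 to 4.33). Nr4a1 had 50 and 144 UMIs and 0.53 (0.07 to 1.04), and Jun 9 and 25 UMIs and 0.44 (−0.66 to 1.77). The Nr4a3 level there, 42.5% of the myonuclei-like level, lay near the 36.1% of the pan-myonuclear transcripts.

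The 254 WT and 1076 knockout adipocyte-like nuclei came from different clusters. They also differed in sex mark, with 711 Xist-marked and 75 Y-marked nuclei in the knockout and 0 and 81 in WT. Knockout myonuclei-like nuclei had 574 and 2738. Sex mark was thus matched neither in the ratios of this class nor in its percentages of the myonuclei-like level, and its part in them was not tested. The 242 WT nuclei of cluster 9 had 0 adipocyte markers among its 10 leading genes and a marker score of 2.09, close to the threshold of 2, whereas cluster 21 held 1069 of the knockout nuclei. Nr4a1 had 9 and 356 UMIs, a log2 ratio of 2.22 (1.35 to 3.44), and Egr1 5 and 80 UMIs, 0.86 (−0.29 to 2.65). Nr4a3 and Fosb had 0 UMIs in WT and 48 and 36 in the knockout, at least 1.99-fold and 1.49-fold higher with WT set to 3 UMIs. Nr4a2, with 1 and 47 UMIs, had a 3.93-fold ratio with an interval of 0.997 to 235. With 0.5 UMI added to each sum, 4 of 7 members with at least 20 UMIs passed 2-fold (17.0% of all genes), but of these the bounds of Nr4a3 and Fosb and the interval of Nr4a2 reach below 2-fold, and Nr4a1 alone does not rest on 0 or 1 WT UMI.

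In 128 WT and 221 knockout macrophage-like nuclei, Nr4a1 alone reached 20 UMIs, with 13 and 75 and a log2 ratio of 0.78 (−0.03 to 1.80). Blood endothelial-like nuclei were too few in WT (12) to compare. In the 85 of the knockout Egr1 had 10 UMIs, 1006% (471 to 1915) of its myonuclei-like level, and was the member furthest above carry-over there.

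Other immediate early genes and further groups of genes were taken from lists chosen with earlier results of these data known. Their counts are therefore a description. Of 41 other immediate early genes, 31 had at least 20 UMIs in myonuclei-like nuclei, and of these 11 were at least 2-fold higher in the knockout and 0 lower, beside 4.72% higher and 22.6% lower over all genes. The median log2 ratio was 0.63 against −0.10 over all genes. In Y-marked nuclei of both libraries 7 of 22 were higher and 1 was lower, with a median of 0.27. Sik1, a kinase gene induced through CREB, had 24 and 180 UMIs and a log2 ratio of 2.19. Klf6, a zinc finger factor, had 46 and 323 (2.10), Ier5 had 6 and 35 (1.75) and the AP-1 gene Jund had 19 and 84 (1.42). Pim1, a kinase gene, was lower in the knockout, at 55.2 against 69.7 CPM (−0.34).

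Of 14 measured heat shock and chaperone genes, 1 was at least 2-fold higher and 1 lower, with a median of 0.23, or 0.13 in Y-marked nuclei. The higher one was Hsph1, a co-chaperone of Hsp70, at 33.7 against 10.7 CPM (1.65), and the lower one Hspa5, the chaperone of the endoplasmic reticulum, at 7.33 against 18.7 CPM (−1.35). Bag3, which binds small heat shock proteins, stood at 121 against 151 CPM.

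Of 33 measured signal and factor genes upstream of immediate early genes, 1 was at least 2-fold higher and 2 were lower, with a median of 0.31. Camk2d, a calcium- and calmodulin-dependent kinase, was at 443 against 204 CPM (1.12), and Mef2c, an activity-dependent factor of muscle, at 3429 against 1839 CPM (0.90). Mrtfb, a coactivator of the serum response factor, had 0.89. The lower ones were Camk4, with 86 and 7 UMIs (−4.22), and Elk3, with 37 and 11 (−2.40). Markers of T cells and endothelium, which also express these genes, were lower in the same nuclei, and their part was not tested.

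The partners and co-regulators of Nr4a receptors were near level, with 0 of 13 beyond 2-fold and a median of 0.09. Ncoa1, a coactivator, had 0.52, while Rxra, the retinoid X receptor that pairs with Nr4a1 and Nr4a2, had −0.41. Among 20 glucose and fuel genes of fast muscle, 0 were at least 2-fold higher and 3 were lower, a smaller share than the 22.6% over all genes, with a median of −0.24. Pfkfb3, which sets the level of an activator of glycolysis, was at 1315 against 708 CPM (0.89) and Phka1, a subunit of phosphorylase kinase, at 2165 against 1412 CPM (0.62). Fabp3, a fatty acid binding protein, had −1.49, Fbp2, the muscle fructose bisphosphatase, −1.33, and Pdk4, which restrains pyruvate oxidation, −1.26.

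Over 19 groups of at least 100 nuclei (fibre types and cell classes by library), the genes whose log2 level was most like that of the summed receptors were, of 8208 ranked, Naa50 (Pearson r 0.89), 5031425E22Rik (0.88), Gm49293, Gm37105 and Map2k4 (0.87 each) and Zfand5 (0.86). Among the members Fos had 0.59, Atf3 0.36, Egr1 0.20 and Jun −0.50. The groups share 2 libraries of unequal depth, so any gene that separates the libraries scores high, and these values are a description. Between fibre types Naa50 stood at 244 CPM in Myh1-leading and 251 in Myh4-leading knockout nuclei, and Zfand5 at 325 and 290, beside 332 and 79.3 CPM for Nr4a3.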

How the data were processed

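The authors deposited unnormalised UMI counts, by gene and cell barcode, from 10x Genomics libraries. Per the file headers, Cell Ranger 6.0.0 wrote them. STAR, Seurat 4.1.1, mm10 and GRCm38 appear in the submitters' processing notes. Annotation release, intron and strand use and barcode calling: not given in the sources used here. Of the features, 52093 matched GENCODE M21 by ID, which gave coordinates and overlaps.

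Nuclei entered with 200 or more genes and no more than 5% of UMIs from mitochondrial genes. They were log-normalised and clustered without integration in scanpy 1.11.5 (2000 variable genes less 4, 30 principal components, 15 neighbours, Leiden resolution 1), giving 22 clusters. Clusters were named at a marker score of at least 2, by thresholds chosen once the data had been seen. No doublet caller was run and doublets stayed in.

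UMIs were summed per library and group, with 0.5 added for ratios. Sums carry exact Poisson intervals, shares Clopper-Pearson intervals and ratios conditional binomial intervals at 95%. Totals were 9746980 UMIs in WT and 16052317 in the knockout. Ratios were made for groups of at least 100 nuclei in both libraries, or for the clusters named. Calls were a 2-fold difference with at least 20 UMIs. The ratio script was tested on simulated counts.

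Named genes were the 10 members, Cavin1, up to 4 genes at either end of each list whose interval excluded 0, and the 6 genes most like the summed receptors, by log2(CPM + 10). The members and lists were chosen with earlier results of these data known. Alternatives covered depth, filters, scaling, clustering, class names, doublets and sex marks. Those leaving out the 10 top nuclei, and those by cluster and by fibre type within marks, were chosen after seeing the data. Some genes that this rule names are not reported here.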

Additional observations from a re-analysis of the deposited data

Results flagged for a closer look

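The knockout to WT ratio of Jun lay on opposite sides of no difference in fibres and in the mesenchymal cells between them. Its log2 ratio was −1.08 in myonuclei-like nuclei and 0.44 (−0.66 to 1.77) in fibro-adipogenic-like nuclei, where it rested on 9 and 25 UMIs. The difference was not tested, and in Y-marked fibro-adipogenic-like nuclei the ratio was −0.67 (−3.09 to 1.76). Atf3 pointed in different directions by fibre type, with log2 ratios of 0.20 in Myh4-leading, 0.46 in Myh1-leading and −0.33 in Myh2-leading nuclei. Each of these intervals includes 0, and the difference between fibre types was not tested.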

How the results depend on the processing

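All 10 members kept their direction in myonuclei-like nuclei under all the alternatives that gave a ratio, 14 or 15 for each. The clustering alternatives changed the WT group itself. At Leiden resolution 0.5, 3594 WT nuclei were named myonuclei-like, and 5267 with the members kept in the clustering, against 7591. In the knockout these numbers were 4983 and 5373, against 5384. Of all 467 recomputed values, which include member counts and co-detection ratios that have no sign, 8 log2 ratios had the other sign. All 8 lay outside muscle, each with an interval that includes 0. In fibro-adipogenic-like nuclei these were Nr4a1 at −0.06 for Xist-marked knockout against Y-marked WT nuclei, Egr1 at −0.02 in Y-marked nuclei, and Jun at −0.67 and −0.18 in these 2 splits. Nr4a1 in macrophage-like nuclei was −0.03 in nuclei with at least 1000 UMIs, and Jun in adipocyte-like nuclei, −0.59, was 2.25 after thinning, 0.12 with at least 500 genes and 0.17 in Y-marked nuclei. The summed receptor log2 ratio in myonuclei-like nuclei, 1.75, was 1.96 after thinning to 500 UMIs, 1.62 in nuclei with at least 1000 UMIs, 1.63 with Rn18s, mitochondrial genes, Malat1 and Ttn left out of the total, 1.97 as a mean of per-nucleus CPM and 1.90 without likely doublets and the top 5% of nuclei by UMIs. The count of 6 members at least 2-fold higher was 4 for Xist-marked knockout against Y-marked WT nuclei, where Egr1, Fosb and Junb fell under 20 UMIs. It was also 4 without the 10 nuclei richest in each gene, which left 0 WT UMIs of Egr1, Fosb and Junb and so gave no ratio for them, and it was 6 or 7 under the other alternatives. Thinning put Fos in the place of Fosb. Nr4a3 ranged from 2.60, for Xist-marked knockout nuclei, to 5.10 without its 10 richest nuclei, and Atf3 from −0.96 at Leiden resolution 0.5 to −0.18 as a mean of per-nucleus CPM. Co-detection of Nr4a3 after thinning had a ratio of 7.56 with Egr1 (6 nuclei) and 1.14 with Fos (2 nuclei against 1.76 expected, and 2.52 without thinning). In Xist-marked nuclei Nr4a3 and Egr1 were together in 0 nuclei, with 0.435 expected. The causes of these shifts were not tested. No paired analysis was possible because each genotype had 1 library and the labels carry no replicate numbers. Depth limited Ier2, the Myh7-leading group and the WT side of Egr1, Fosb and Junb, which had 10 or fewer UMIs each.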

Other observations

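In the unnamed cluster (1381 WT and 36 knockout nuclei) Nr4a1 had 128 and 327 CPM, WT first, from 129 and 14 UMIs, while Nr4a3 had 1 and 0 UMIs and Jun 19 and 1. Mural-like nuclei, 111 and 90, had 15 and 22 UMIs of Nr4a1, at 103% and 44.3% of its myonuclei-like level, where the pan-myonuclear transcripts stood at 67.4% and 40.1%. In satellite cell-like nuclei and in WT B cell-like nuclei the pan-myonuclear transcripts stood near or above their myonuclei-like level, at 103% in WT and 91.4% in the knockout for the former and 116% for the latter, so no level of a member is given for them. In lymphatic endothelial-like nuclei of the knockout (168), Jun had 9 UMIs, 391% (175 to 766) of its myonuclei-like level, where the pan-myonuclear transcripts stood at 35.3%.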
